A study of Mus musculus with 11 samples.

Results

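The genes described here carry and regulate salt, water, calcium, magnesium and acid transport along the distal nephron, and they were followed in whole kidneys of a mouse model of Alport syndrome. They were chosen by name as 33 genes in 5 sets: 8 of the thick ascending limb, 7 of distal convoluted tubule transport, 7 of the WNK kinase and aldosterone pathways, 6 of principal cell transport and 5 of intercalated cells. Of these, 32 had a row among the 24914 rows of each count file, and Slc12a3, which encodes the thiazide-sensitive Na-Cl cotransporter, was not analysed here. The genes, and the lists set beside them below, were chosen with earlier results of these data known, so counts over them are descriptions. Messenger RNA of whole kidneys was sequenced from 129X1/SvJ mice aged 5.5 weeks, in 11 libraries. HET PBS (n = 3) stands for Col4a3+/- mice given PBS, KO PBS (n = 4) for Col4a3-/- mice given PBS, and KO antimiR-21 (n = 4) for Col4a3-/- mice given antimiR-21, an inhibitor of the microRNA miR-21. All 11 libraries carry at least 1 mutant Col4a3 allele, so no wild-type kidney is part of the comparison, and no Col4a3+/- mouse received antimiR-21. Nothing in the labels says that the replicates of a group are separate mice, so p-values measure the spread between these libraries.

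In the thick ascending limb, NaCl enters the cell through the Na-K-2Cl cotransporter Slc12a1, potassium recycles through Kcnj1, and calcium and magnesium pass between cells through claudins. In the distal convoluted tubule and connecting tubule, fine control of sodium, magnesium and calcium is set by WNK kinases and by aldosterone. In the collecting duct, principal cells take up sodium through ENaC and water through aquaporins, and intercalated cells secrete acid or base. Alport syndrome is a disease of type IV collagen in basement membranes, and Col4a3 encodes one of its chains.

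The microRNA that the treatment targets is shown first, with its seed (bases 2 to 8) in capitals, because a match to that seed marks a possible direct target. It is encoded on chromosome 11 at chr11:86584120-86584141, minus strand, and the sequence is from RefSeq (GRCm38.p6).
mmu-miR-21a-5p: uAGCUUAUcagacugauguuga
The match to this seed, ATAAGCT, was searched on the sense strand in the longest annotated 3' UTR of each gene (GENCODE vM21, GRCm38). It occurred in 4 of the 33 genes (12.1%) and in 1509 of 21020 genes in all (7.18%). Each site is shown 5' to 3' on the sense strand with the seed match in capitals.
Slc12a1: tatttaatgcagcggataATAAGCTtaccc
Scnn1g: aacctggactcagcacttATAAGCTaaaga
Kcnj16: ataaatatagagaagcagATAAGCTaaata
Slc8a1: tctggggggtggggggaaATAAGCTggtca
The matches lie at chr2:125229451-125229457 (plus strand) for Slc12a1, chr7:121767758-121767764 (plus) for Scnn1g, chr11:111026088-111026094 (plus) for Kcnj16 and chr17:81381155-81381161 (minus) for Slc8a1. A match of 7 bases is a description of the sequence and does not show that the site is used.

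Depth differed between libraries: the deposited counts summed to 22.4 to 49.7 M, and 17.9 to 39.7 M were left once names with identical counts had been joined. Levels are given as CPM, the count scaled to a common library size, with TMM factors between 0.917 and 1.08. Markers of proximal tubule, 8 of 8 with a row and abundant in kidney, summed to between 10780 and 16320 CPM in every library. The targeted gene could not check the labels, since Col4a3 shares identical counts with its neighbour Col4a4. That joint locus had 870 to 1271 CPM in HET PBS, 607 to 997 CPM in KO PBS and 515 to 809 CPM in KO antimiR-21. The libraries also differed in Y-linked transcripts, for which the labels give no sex: Ddx3y, a Y-linked RNA helicase, stood at 89.7 to 109.5 CPM in 5 libraries and at no more than 0.172 CPM in the other 6. The 5 libraries are HET PBS 2 and 3, KO PBS 3 and 4 and KO antimiR-21 4, so 2 of 3, 2 of 4 and 1 of 4 libraries of the groups have Y-linked reads.

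The 32 genes spanned a wide range of abundance. Per kilobase of exon, and over all 11 libraries, Umod was first at 1796 ± 291 CPM per kb (SD, n = 11), and Slc12a1 followed at 303 ± 46.0 CPM per kb. Umod encodes uromodulin, the most abundant protein of normal urine. Next came Aqp2, the vasopressin-regulated water channel, at 279.8 ± 71.2 CPM per kb, and Kcnj16, a subunit of a basolateral potassium channel, at 197.8 ± 18.4 CPM per kb. At the other end, the mineralocorticoid receptor Nr3c2 had 2.96 ± 0.346 CPM per kb and the magnesium channel Trpm6 had 1.35 ± 0.372 CPM per kb. Among the 28 genes that could be ranked, 23 of the 27 neighbouring pairs overlapped in their ranges over libraries. The exceptions were the steps from Umod to Slc12a1, from Kcnj16 to Calb1, from Slc8a1 to Nr3c2 and from Nr3c2 to Trpm6. Genes that share all their counts with another gene were left out of this order, among them Kcnj1 (with Fli1), Wnk4 (with Coa3) and Avpr2 (with Arhgap4), because the reads cannot be assigned to either gene.

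**Figure D1:**
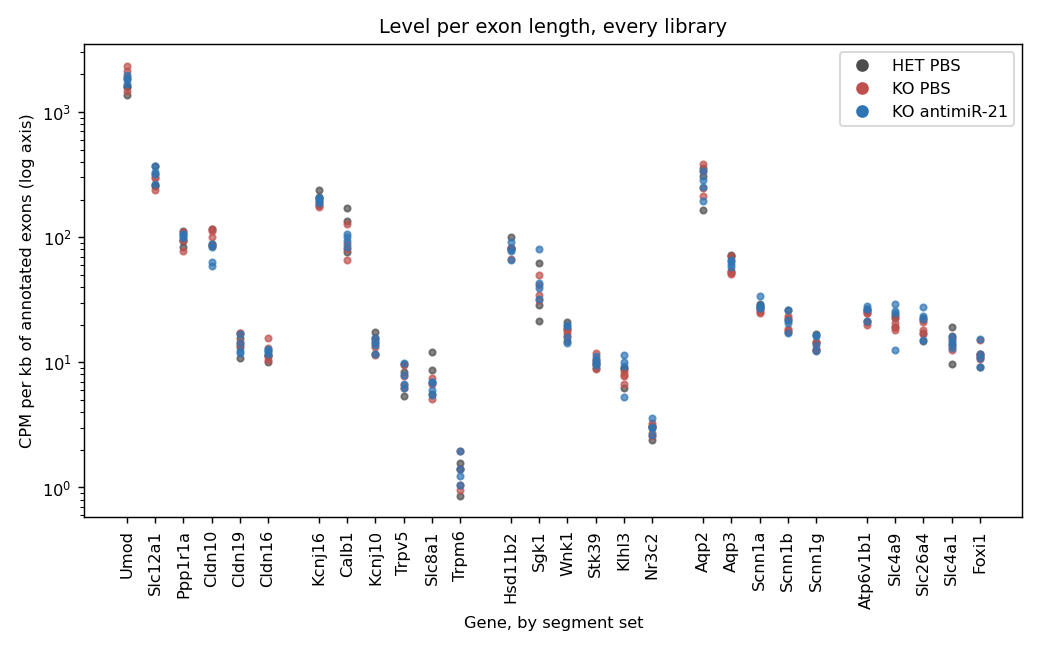
Level of 28 distal nephron genes in CPM per kilobase of exon (logarithmic axis), with 1 point per library, coloured by group. Umod lies above the other genes in every library, at 1375 to 2355 CPM per kb, and Trpm6 lies lowest, at 0.857 to 1.96 CPM per kb.

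Levels were steady over libraries for most of these genes. The highest and lowest library differed by less than 2 times in 25 of the 32 genes, from 1.33 times in Stk39 to 1.96 times in Cldn10 and 1.97 times in Slc4a1 at the upper end. The other 7 were Trpm6, Klhl3, Aqp2, Slc4a9, Slc8a1, Calb1 and Sgk1, with a ratio of up to 3.78 for Sgk1. Sgk1 encodes a kinase induced by corticosteroids that raises sodium uptake. The median coefficient of variation over genes was 17.6% within HET PBS, 12.7% within KO PBS and 13.3% within KO antimiR-21. HET PBS 3 stood at an end of the range for several genes, named after their values were seen: it was highest of the 11 for Calb1 (821.9 CPM) and Slc8a1 (229.5 CPM), which handle calcium in the distal tubule, and lowest for Aqp2 (235.0 CPM), Slc4a1 (47.5 CPM) and Sgk1 (104.6 CPM). KO antimiR-21 4 was lowest of the 11 for Klhl3 (38.6 CPM), an adaptor that targets WNK kinases for degradation, and for Slc4a9 (80.2 CPM), a bicarbonate transporter of intercalated cells.

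**Figure D2:**
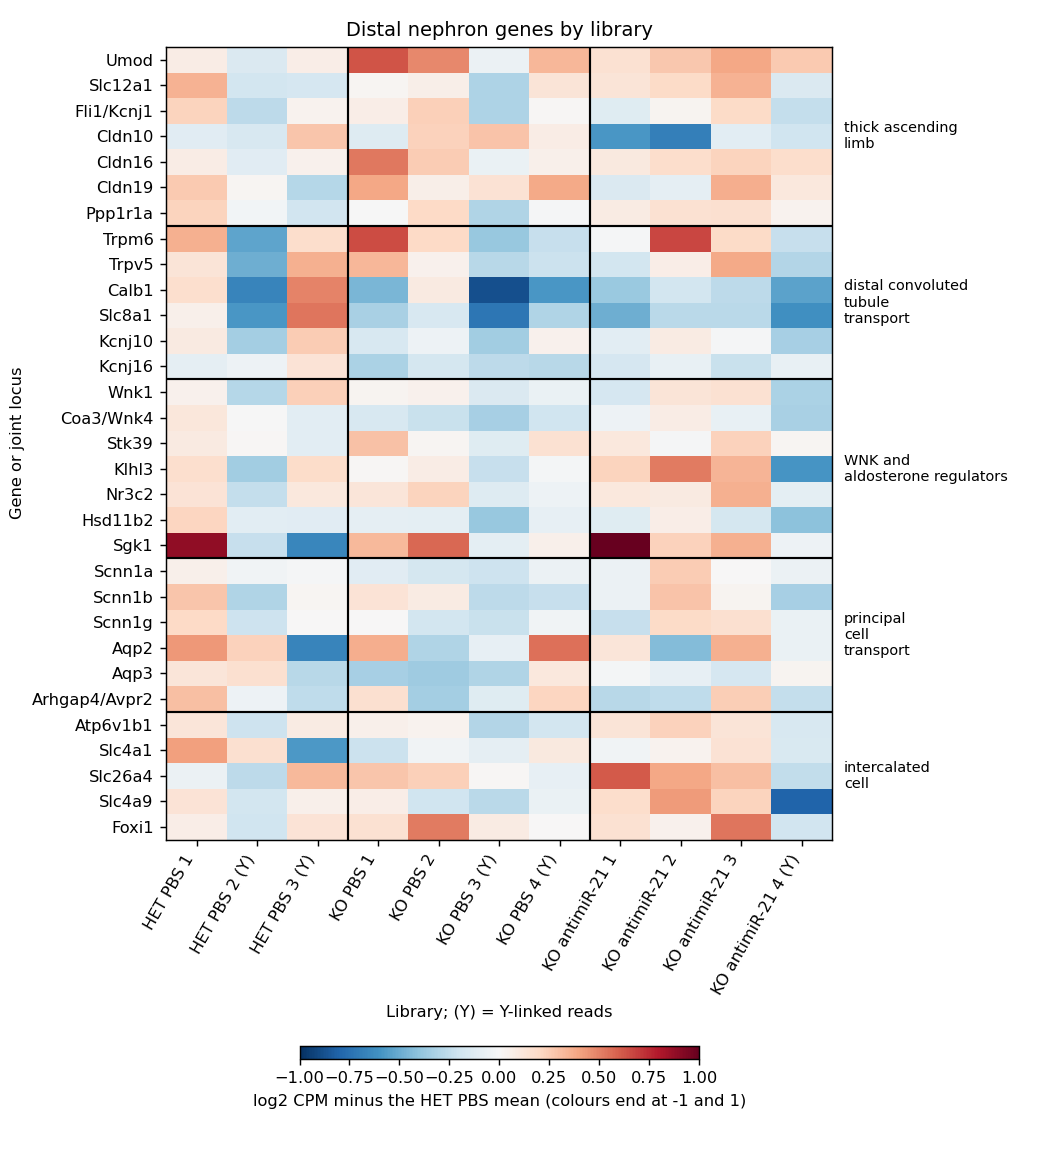
Level of 31 distal nephron genes or joint loci (rows, in 5 sets) in 11 libraries (columns), as log2 CPM minus the HET PBS mean, with (Y) marking libraries with Y-linked reads. Calb1 and Slc8a1 were highest in HET PBS 3, Sgk1 was highest in KO antimiR-21 1, and columns marked (Y) are often blue.

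The first comparison asks whether distal nephron transcripts differ between Col4a3-/- and Col4a3+/- kidneys. None of the 32 genes passed an adjusted p under 0.05 in KO PBS against HET PBS (edgeR's quasi-likelihood test, Benjamini-Hochberg over 14380 loci), nor did any locus in the table (0%). DESeq2, which calls more, gave 84 loci, and neither it nor limma-voom called any of the 32 genes. At an unadjusted p under 0.05, 3 of 32 genes (9.38%) were found against 6.94% of all loci (998 loci), so the share of these genes was near the background. Of the 32 genes, 12 had a positive and 20 a negative log2 difference, with a median of -0.05 against -0.02 over all loci, and 28 of them lay within 0.25 of 0. By set, the median log2 difference was 0.06 in the thick ascending limb, -0.20 in the distal convoluted tubule, -0.05 in WNK and aldosterone regulators, -0.10 in principal cells and -0.10 in intercalated cells. In bulk tissue, fewer cells of a type and less RNA per cell cannot be told apart.

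In the thick ascending limb, Umod (chr7:119462711-119479282, minus strand, GRCm38) had 4430, 3798 and 4411 CPM in HET PBS and 6507, 5865, 4043 and 5292 CPM in KO PBS. Of the 4 KO PBS libraries, 3 were above every HET PBS library, but KO PBS 3 was below HET PBS 1 and 3, so the groups overlapped. The means were 4213 ± 359 CPM (SD, n = 3) and 5427 ± 1048 CPM (SD, n = 4), a log2 difference of 0.37 (SE 0.148, unadjusted p = 0.0303, adjusted p = 0.666 by edgeR). Without KO PBS 1 the log2 difference was 0.267, and within the libraries without and with Y-linked reads it was 0.48 and 0.18, where a single HET PBS library lacks Y-linked reads. Umod shares 539 bases of exon with Gm44588 on the opposite strand, which an unstranded library cannot separate. Slc12a1 was at 2150, 1484 and 1499 CPM in HET PBS and at 1708, 1755, 1361 and 1845 CPM in KO PBS, with overlapping groups. The claudins of this set are Cldn10, Cldn16 and Cldn19. Their means were 268.8, 14.8 and 66.7 CPM in KO PBS and 249, 12.8 and 56.6 CPM in HET PBS. Ppp1r1a, a regulator of protein phosphatase, had a KO PBS mean of 123.4 CPM and a HET PBS mean of 126.0 CPM. The joint locus of Kcnj1 had 181 to 266 CPM in KO PBS against 188 to 263 CPM in HET PBS.

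In the distal convoluted tubule set, Kcnj16 (chr11:110968033-111027968, plus strand) had 806.2, 825.9 and 943.3 CPM in HET PBS and 686.9, 759.8, 716.3 and 706.1 CPM in KO PBS. Every KO PBS library was below every HET PBS library. The means of 858.5 ± 74.1 and 717.3 ± 30.8 CPM gave a log2 difference of -0.26 (SE 0.089, unadjusted p = 0.0134, adjusted p = 0.585 by edgeR), which was -0.16 and -0.31 within libraries without and with Y-linked reads, and -0.174 (unadjusted p = 0.107) without HET PBS 3. Its partner in the channel, Kcnj10, had group means of 80.7 ± 16.3 and 73.1 ± 8.39 CPM in HET PBS and KO PBS. Per kilobase of exon and over all libraries, Kcnj10 had 14.03 CPM and Kcnj16 had 197.8 CPM. Whole-kidney counts do not place the RNA of either gene in a segment. The calcium-binding protein Calb1 had the most negative difference of the 32 genes, -0.49 (SE 0.260, unadjusted p = 0.0844, adjusted p = 0.766 by edgeR), and was named after its values were seen. Its libraries stood at 654.6, 369.1 and 821.9 CPM in HET PBS and at 424.3, 619.4, 317.1 and 389.9 CPM in KO PBS, so the groups overlapped. The sodium-calcium exchanger Slc8a1 had 163.3, 105.5 and 229.5 CPM in HET PBS and 126.5, 141.2, 95.6 and 128.7 CPM in KO PBS. For both, HET PBS 2 and HET PBS 3 lie at the ends of a wide HET PBS range. The calcium channel Trpv5 and the magnesium channel Trpm6 had means of 25.4 and 9.85 CPM in HET PBS and 24.5 and 10.3 CPM in KO PBS.

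Among the regulators, the joint locus Coa3/Wnk4 had 495.2, 456.9 and 425.0 CPM in HET PBS and 409.5, 393.5, 364.3 and 398.6 CPM in KO PBS. All 4 KO PBS libraries were below all 3 HET PBS libraries. As for Kcnj16, the share of all loci that separate these groups in this way was not counted. The log2 difference was -0.23 (SE 0.104, unadjusted p = 0.0472, adjusted p = 0.715 by edgeR), and -0.30 and -0.21 within libraries without and with Y-linked reads. Without HET PBS 1 it was -0.172 (unadjusted p = 0.169 by edgeR). The unadjusted p by edgeR was 0.0594 with only these groups in the fit and 0.00782 with Ddx3y status as a covariate. Wnk4 encodes a kinase that controls the Na-Cl cotransporter, and Coa3 a mitochondrial assembly factor. Wnk1, the related kinase, had means of 414 ± 73.9 and 400.1 ± 24.4 CPM in HET PBS and KO PBS, and Stk39, the kinase that WNKs phosphorylate, had 47.8 ± 3.24 and 50.9 ± 6.27 CPM. Klhl3 had 58.9 ± 11.5 and 56.6 ± 5.02 CPM, and Nr3c2 had 18.4 ± 2.52 and 18.9 ± 2.09 CPM. Hsd11b2, which protects the mineralocorticoid receptor from glucocorticoids, had 161.5 ± 21.3 and 144.1 ± 13.8 CPM. With Ddx3y status as a covariate, 5 genes had an unadjusted p under 0.05, the 3 above and Calb1 (log2 difference -0.58, adjusted p = 0.482 by edgeR) and Hsd11b2 (-0.20, adjusted p = 0.495), both of which were named after their values were seen.

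In principal cells, Aqp3, the basolateral water channel, had 129.5, 132.9 and 98.3 CPM in HET PBS and 94.8, 93.2, 96.7 and 128.2 CPM in KO PBS. KO PBS 1, 2 and 3 were below all HET PBS libraries and KO PBS 4 was not. The log2 difference was -0.22 (SE 0.13, adjusted p = 0.784 by edgeR), and -0.46 and -0.04 within libraries without and with Y-linked reads, -0.342 without KO PBS 4 and -0.129 without HET PBS 2. Aqp2 varied within both groups, from 235.0 to 502.4 CPM in HET PBS and from 301.5 to 546.5 CPM in KO PBS. The 3 subunits of ENaC, Scnn1a, Scnn1b and Scnn1g, had HET PBS means of 117.7, 57.4 and 43.7 CPM and KO PBS means of 107.0, 54.4 and 40.4 CPM. The joint locus of Avpr2, the vasopressin receptor, had 31.5 to 46.2 CPM in HET PBS and 29.7 to 43.5 CPM in KO PBS.

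In intercalated cells, Foxi1, a transcription factor required for their identity, had 26.1, 21.7 and 27.4 CPM in HET PBS and 27.7, 35.8, 26.4 and 25.1 CPM in KO PBS. The groups overlapped, with a log2 difference of 0.20 (SE 0.174, adjusted p = 0.848 by edgeR). It was 0.092 without KO PBS 2 and 0.119 without HET PBS 2. The proton pump subunit Atp6v1b1 had means of 106.4 ± 12.7 and 99.4 ± 11.4 CPM in HET PBS and KO PBS, the chloride-bicarbonate exchanger Slc26a4 had 56.5 ± 12.0 and 60.5 ± 7.26 CPM, and Slc4a9 had 140.3 ± 15.4 and 129.3 ± 13.3 CPM. Slc4a1, the anion exchanger of type A intercalated cells, had 73.3 ± 23.6 and 68.0 ± 6.12 CPM and is made by red cells as well. Erythrocyte markers with a row (4 of 10) summed to 48.7 to 61.6 CPM in HET PBS and to 22.2 to 35.2 CPM in KO PBS, and their part in the Slc4a1 value was not tested.

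**Figure D3:**
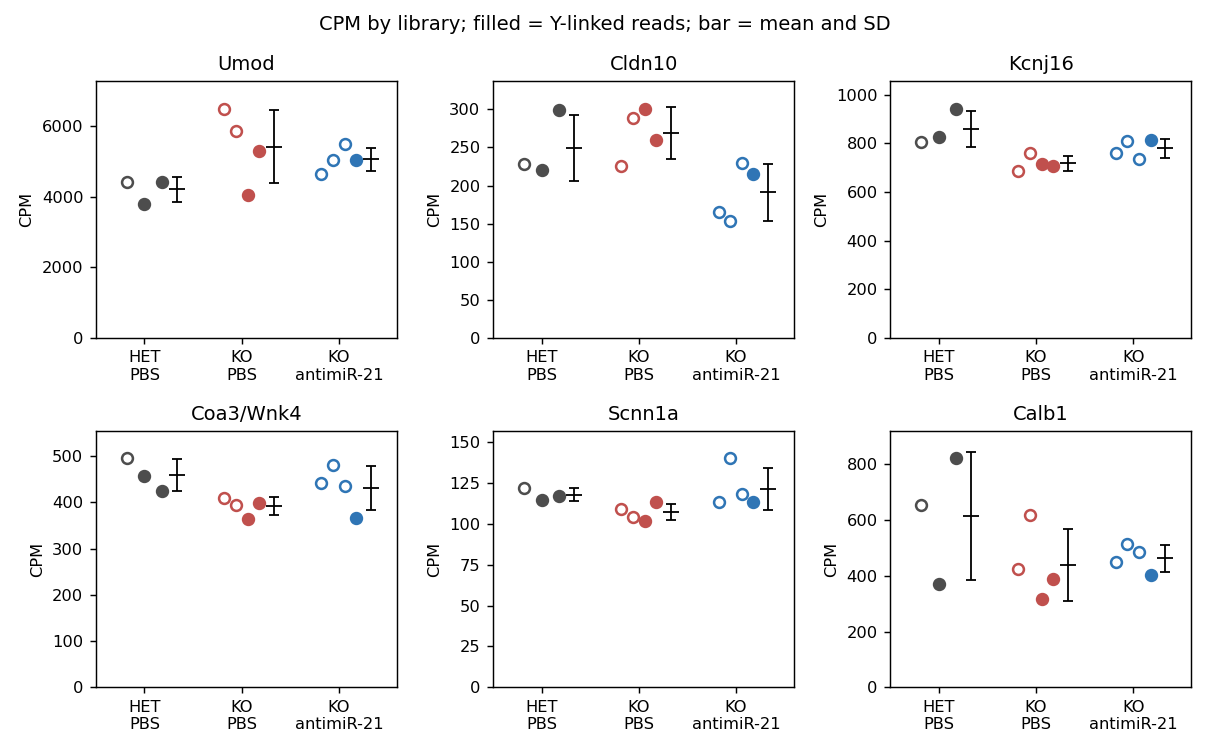
CPM per library of 6 genes or joint loci in the 3 groups, with the mean and SD beside the points and filled points for libraries with Y-linked reads. In Kcnj16 and Coa3/Wnk4 the KO PBS libraries lie below the HET PBS libraries, and in Cldn10 the KO antimiR-21 mean of 190.9 CPM lies below the KO PBS mean of 268.8 CPM.

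Summed markers of other cell types and states are given for the same groups. No gene of these lists passed an adjusted p under 0.05 by edgeR in KO PBS against HET PBS, and the part of these lists in the values above was not tested. Proximal tubule markers (8 of 8 genes with a row) summed to 13490 to 16320 CPM in HET PBS and to 10780 to 13650 CPM in KO PBS, ranges that overlap. Tubular injury markers (7 of 7) summed to 144 to 201 CPM in HET PBS and to 238 to 456 CPM in KO PBS. Macrophage markers (6 of 8) summed to 244 to 283 and 295 to 367 CPM. Inner medulla and tonicity genes (5 of 6) summed to 778 to 1101 and 808 to 1057 CPM, with none at an unadjusted p under 0.05. Clock genes (10 of 12) summed to 1053 to 1643 and 857 to 1051 CPM, a sum over 3 genes with a positive and 7 with a negative difference. At an unadjusted p under 0.05 by edgeR, 5 of 7 injury and 4 of 6 macrophage markers were higher in KO PBS. At the same threshold, 3 of 8 proximal tubule markers and 6 of 10 clock genes were lower, against 6.94% of all loci in either direction. These lists were chosen with earlier results of these data known, so the shares are a description.

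The second comparison asks what antimiR-21 did in Col4a3-/- kidneys. Again none of the 32 genes passed an adjusted p under 0.05 (edgeR), nor did any locus (0%), while DESeq2 called 126 loci and none of the 32 genes. At an unadjusted p under 0.05, 2 of 32 genes (6.25%) were found against 8.21% of all loci (1181 loci), a share below the background. The difference, KO antimiR-21 minus KO PBS, was positive in 21 and negative in 11 genes, with a median of 0.07 against 0 over all loci, and 30 of the 32 lay within 0.25 of 0. KO PBS libraries enter both this comparison and the one above, so the 2 sets of differences share them.

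Cldn10 (chr14:118787908-118875489, plus strand) had the largest difference. The gene has separate annotated starts, whose transcripts a count per gene does not tell apart. Cldn10 had 225.1, 289.4, 301.2 and 259.4 CPM in KO PBS and 164.6, 153.5, 229.9 and 215.4 CPM in KO antimiR-21. The groups overlapped only through KO antimiR-21 3, which was above KO PBS 1. The log2 difference was -0.49 (SE 0.154, unadjusted p = 0.00776, adjusted p = 0.392 by edgeR), and it was -0.51 and -0.38 within libraries without and with Y-linked reads. Scnn1a (chr6:125320659-125344943, plus strand), the alpha subunit of ENaC, had 109.0, 104.3, 101.8 and 113.1 CPM in KO PBS and 113.1, 139.9, 118.0 and 113.0 CPM in KO antimiR-21. KO antimiR-21 2 and 3 were above every KO PBS library, and KO antimiR-21 1 and 4 were level with KO PBS 4. The log2 difference was 0.18 (SE 0.0783, unadjusted p = 0.0439, adjusted p = 0.592 by edgeR), and without KO antimiR-21 2 it was 0.084.

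The other sets gave smaller shifts. Kcnj16 had 761.0, 811.6, 734.2 and 812.2 CPM in KO antimiR-21, with a mean of 779.7 CPM between those of KO PBS and HET PBS, and with a log2 difference from KO PBS of 0.12 (SE 0.0827, adjusted p = 0.771 by edgeR). Coa3/Wnk4 had 441.9, 481.4, 434.3 and 365.4 CPM, with a log2 difference of 0.14 (SE 0.0962, adjusted p = 0.775 by edgeR). It was 0.17 and -0.06 within libraries without and with Y-linked reads, and 0.064 without KO antimiR-21 2. Of these 4 libraries, 3 were above all KO PBS libraries. Atp6v1b1 had 109.5, 108.4, 86.4 and 93.2 CPM in KO PBS and 116.1, 124.5, 116.1 and 94.5 CPM in KO antimiR-21. Its log2 difference was 0.18 (SE 0.111, adjusted p = 0.737 by edgeR), and 0.12 and 0.08 within libraries without and with Y-linked reads, and 0.116 without KO antimiR-21 2. Sgk1 had 395.1, 192.6, 210.3 and 158.2 CPM in KO antimiR-21 against 205.2, 244.5, 153.1 and 169.9 CPM in KO PBS, and only KO antimiR-21 1 lay above the range of the KO PBS libraries.

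The 4 genes whose 3' UTR holds the miR-21a-5p seed match shown above gave log2 differences in KO antimiR-21 against KO PBS of 0.16 for Slc12a1, 0.13 for Scnn1g, 0.12 for Kcnj16 and -0.04 for Slc8a1. None passed the test. Slc12a1 had 1708, 1755, 1361 and 1845 CPM in KO PBS and 1840, 1923, 2146 and 1525 CPM in KO antimiR-21, and Scnn1g had 43.6, 38.2, 37.2 and 42.5 CPM and 37.0, 49.6, 48.5 and 41.4 CPM. Both genes' groups overlapped.

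The third comparison, KO antimiR-21 against HET PBS, shares the HET PBS libraries with the first and the KO antimiR-21 libraries with the second. None of the 32 genes passed an adjusted p under 0.05 by edgeR, against 1 locus in the table (0.00695%), and 1 of 32 (3.13%) had an unadjusted p under 0.05, against 8.05% of all loci (1158 loci). That gene was Cldn10, with HET PBS values of 227.9, 220.6 and 299.1 CPM and a log2 difference of -0.38 (SE 0.165, unadjusted p = 0.0386, adjusted p = 0.599 by edgeR). It was -0.235 (unadjusted p = 0.2 by edgeR) without HET PBS 3, and its unadjusted p was also over 0.05 without KO antimiR-21 1, without KO antimiR-21 2 and with Ddx3y status as a covariate. Slc8a1 had 112.9, 131.3, 131.3 and 103.1 CPM in KO antimiR-21, a log2 difference from HET PBS of -0.47 (SE 0.218, adjusted p = 0.614 by edgeR), which became -0.172 without HET PBS 3 and -0.712 without HET PBS 2. The anion exchanger Slc26a4 had 53.5, 46.3 and 69.7 CPM in HET PBS and 85.3, 72.9, 68.7 and 46.9 CPM in KO antimiR-21. Its log2 difference was 0.28 (SE 0.191, adjusted p = 0.647 by edgeR), and it was 0.49 and -0.28 within libraries without and with Y-linked reads, 0.154 without HET PBS 2 and 0.452 without HET PBS 3. Hsd11b2 had 147.4, 168.2, 142.2 and 120.7 CPM in KO antimiR-21 and a log2 difference of -0.16 (SE 0.125, adjusted p = 0.671 by edgeR). This was -0.045 without HET PBS 1, -0.08 without KO antimiR-21 4 and -0.26 (unadjusted p = 0.0159, adjusted p = 0.648) with Ddx3y status as a covariate. For the joint locus of Avpr2 the log2 difference was -0.13 (SE 0.178, adjusted p = 0.8 by edgeR), and it was 0.031 without HET PBS 1.

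**Figure D4:**
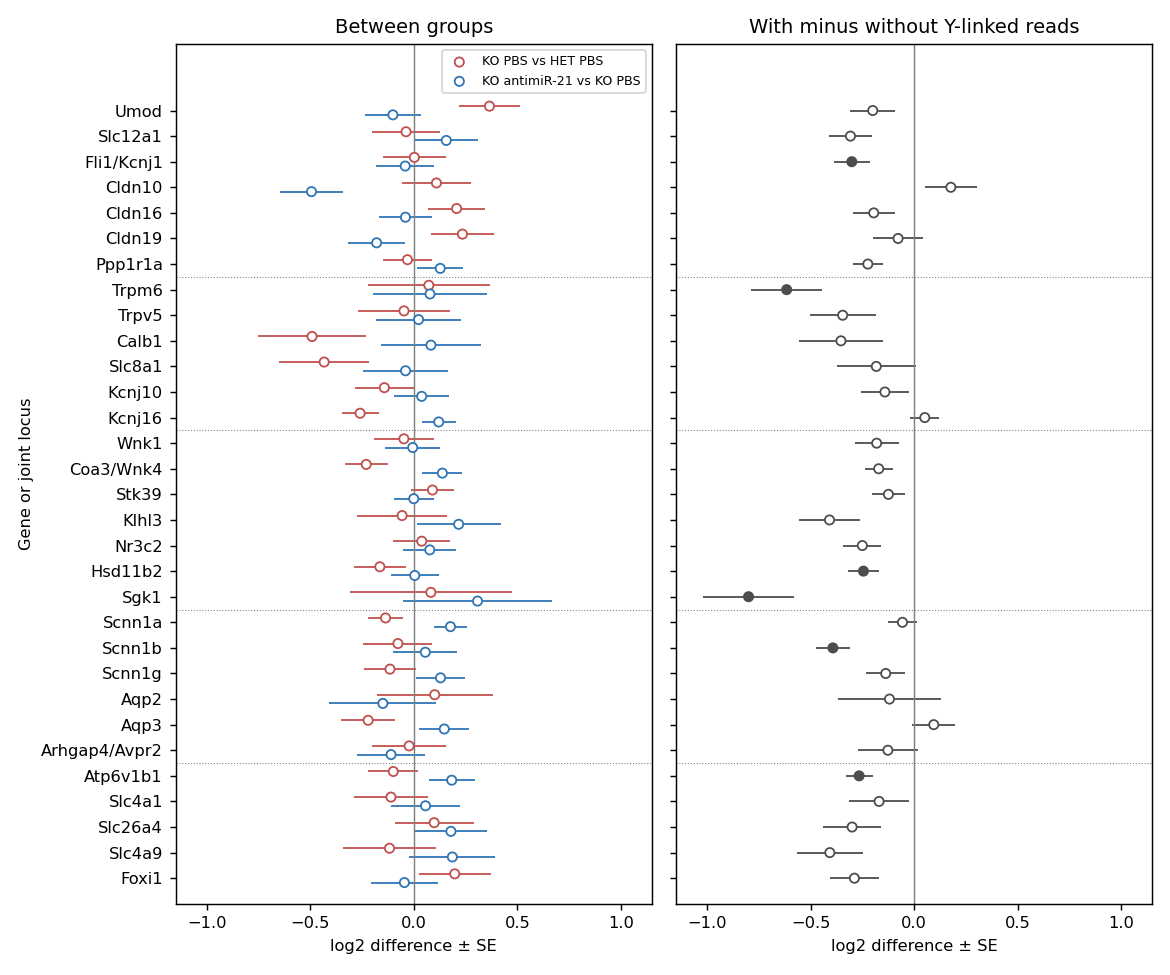
Log2 difference with its SE for 31 distal nephron genes or joint loci, in 2 comparisons between groups (left) and between libraries with and without Y-linked reads (right), where filled points have an adjusted p under 0.05. No point on the left is filled, and 6 of 31 on the right are.

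Other genes of the same segments, 51 in 5 lists with 46 tested, were read beside the 32. In KO PBS against HET PBS none passed an adjusted p under 0.05, and 6 of 46 (13.0%) had an unadjusted p under 0.05, against the 6.94% of all loci. In distal convoluted tubule genes these were Kl, the FGF23 co-receptor, with a log2 difference of -0.41 (adjusted p = 0.536 by edgeR), and the vitamin D receptor Vdr, with -0.30 (adjusted p = 0.510). In WNK and corticosteroid genes 3 of 11 had a negative difference at an unadjusted p under 0.05, among them Usp2, a deubiquitinase, at -0.80 (adjusted p = 0.585) and the joint locus of Prss8, a protease that activates ENaC, at -0.30 (adjusted p = 0.669). In principal cell genes Cldn4 had a log2 difference of 0.63 (adjusted p = 0.683 by edgeR). In KO antimiR-21 against KO PBS, 5 of 46 (10.9%, against 8.21% of all loci) had an unadjusted p under 0.05: Usp2 at 0.99 (adjusted p = 0.334), the glucocorticoid-induced Tsc22d3 at 0.83 (adjusted p = 0.405), the joint loci of Egf at 0.61 (adjusted p = 0.412), of Atp6v1c2 at -0.20 (adjusted p = 0.589), and of Prss8, all by edgeR. Prss8 is named here after its value was seen. In KO antimiR-21 against HET PBS, 2 of 46 (4.35%, against 8.05% of all loci) had an unadjusted p under 0.05 by edgeR. They were Vdr at -0.29 (adjusted p = 0.516) and Kl at -0.37 (adjusted p = 0.569). Usp2 and Tsc22d3 are known to follow the daily rhythm and corticosteroids, and summed clock genes ranged from 1049 to 1741 CPM in KO antimiR-21 against 857 to 1051 CPM in KO PBS. This sum hides opposite directions: of 10 clock genes tested, 7 had a positive and 3 a negative difference. At an unadjusted p under 0.05 by edgeR, 6 were higher and 2 were lower in KO antimiR-21. The part of the clock genes' difference in these values was not tested.

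Some of these genes did differ between libraries with and without Y-linked reads. With group in the model, 6 of the 32 genes (18.8%) were lower in libraries with Y-linked reads at an adjusted p under 0.05 by edgeR, and none was higher. Over the table, 17.9% of loci (2576) passed in either direction and 6.85% (985) passed as lower. The difference was negative in 29 of 32 genes (90.6%) against 53.6% of all loci, with a median of -0.20 against -0.02. In 21 of the 32 genes, libraries with Y-linked reads were lower on average in all 3 groups. This held in 2 groups for 6 genes and in 1 group for 4 genes, and Cldn10 was higher in all 3. The matching count over all loci was not made. HET PBS has only 1 library without Y-linked reads and KO antimiR-21 only 1 with them, so this count leans on single libraries. The grouping by Y-linked reads was made from the data and not from labels, and what else the 5 libraries share is not given. Genes of other lists passed the same test. In libraries with Y-linked reads, 3 of 8 proximal tubule markers were higher at an adjusted p under 0.05 by edgeR. They were the transporters Slc7a13 (log2 difference 4.11), Slc22a7 (1.33) and Slc22a6 (a log2 difference of 1). Of all 8 markers, 4 had a positive and 4 a negative difference, with a median of 0.02, and none of the negative ones passed. The joint locus of Alas2, of heme synthesis in red cells, was also higher (0.33, adjusted p = 0.014 by edgeR), and the inositol transporter Slc5a3 was lower (-0.41, adjusted p = 0.0048 by edgeR). None of the tubular injury, macrophage or clock genes passed, with median log2 differences of -0.46 over 7 genes, -0.42 over 6 and 0.17 over 10. Their part in the distal nephron values was not tested.

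Scnn1b (chr7:121865038-121918514, plus strand), the beta subunit of ENaC, fell by 0.39 on the log2 scale in libraries with Y-linked reads (SE 0.0813, adjusted p = 0.00546 by edgeR). It had 45.0 to 57.5 CPM (median 47.3, n = 5) with Y-linked reads and 54.4 to 69.2 CPM (median 61.0, n = 6) without. Atp6v1b1 (chr6:83742990-83758855, plus strand) was 86.4 to 112.4 CPM with and 108.4 to 124.5 CPM without, a fall of 0.27 (SE 0.0653, adjusted p = 0.0142 by edgeR), with 1 library (HET PBS 3) of the 5 inside the other range. Trpm6 (chr19:18749983-18892511, plus strand) was 6.62 to 10.8 CPM with and 9.46 to 15.1 CPM without, and its log2 difference was -0.62 (SE 0.171, adjusted p = 0.0269 by edgeR).

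The joint locus Fli1/Kcnj1 was 181.2 to 230.6 CPM with and 207.2 to 265.7 CPM without, with a log2 difference of -0.30 (SE 0.0882, adjusted p = 0.0336 by edgeR), and Fli1 is an endothelial and blood cell factor. Sgk1 (chr10:21882184-21999903, plus strand) was 104.6 to 169.9 CPM with and 192.6 to 395.1 CPM without. It was the only one of the 32 genes whose ranges did not overlap, and its log2 difference was -0.80 (SE 0.222, adjusted p = 0.0353 by edgeR). How many of all loci separate by Y-linked reads in this way was not counted. Hsd11b2 (chr8:105518755-105523988, plus strand) was 120.7 to 152.1 CPM with and 142.2 to 186.1 CPM without, with a log2 difference of -0.24 (SE 0.0748, adjusted p = 0.04 by edgeR).

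The call rests on few libraries for most of these 6. Leaving out 1 library gave from 1 to 10 genes called: 1 without KO PBS 3, 1 without KO antimiR-21 4, 2 without HET PBS 1, 3 without HET PBS 2 and 10 without HET PBS 3. Scnn1b was past the adjusted threshold in each of the 11 fits that leave out a library, where its log2 difference ran from -0.43 to -0.358 and its adjusted p from 0.00378 to 0.0397. The other 5 each lost the call in at least 2 of them. With the replicate number as a block, Scnn1b lost the call too (log2 difference -0.512, adjusted p = 0.144 by edgeR). Every library numbered 1 lacks Y-linked reads and every library numbered 4 has them. The block thus takes up part of the difference by Y-linked reads, and the lost call cannot tell how stable that difference is.

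**Figure D5:**
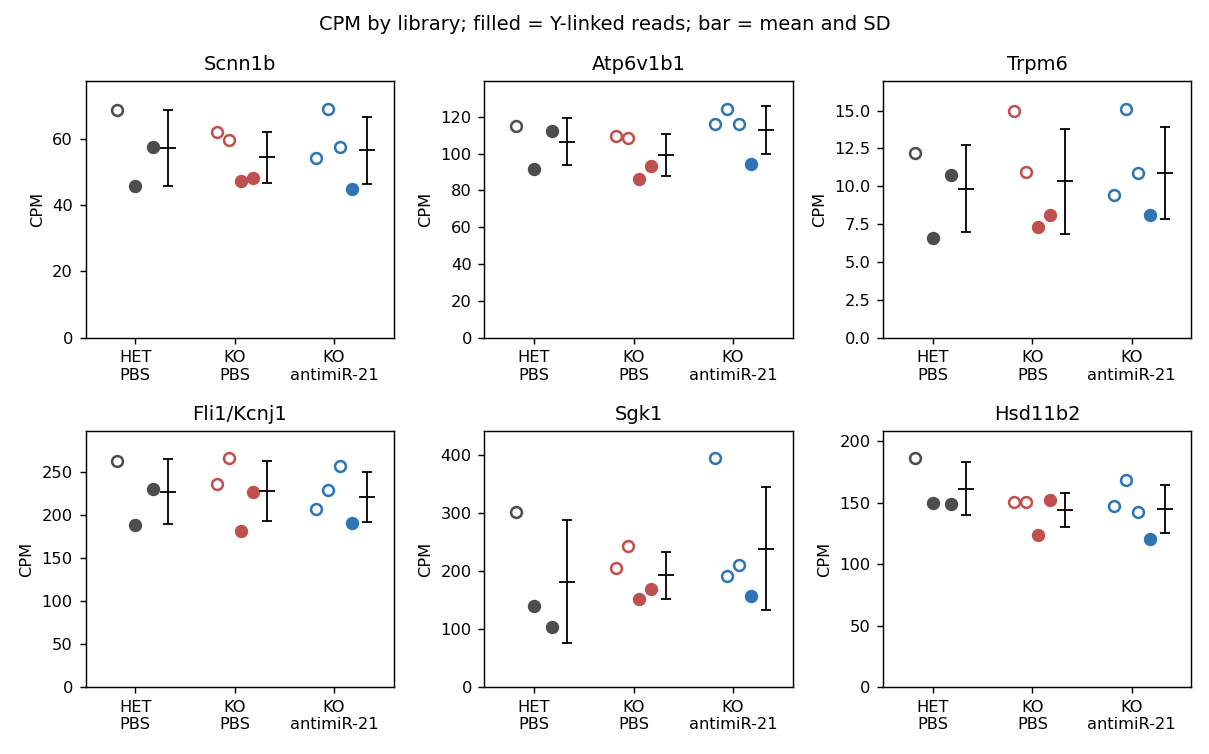
CPM per library of the 6 genes or joint loci that were lower in libraries with Y-linked reads (filled points) than without (open points), by group, with the mean and SD beside the points. In Scnn1b the filled points range from 45.0 to 57.5 CPM and the open points from 54.4 to 69.2 CPM.

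Among other genes of these segments, 9 of 46 (19.6%) were lower in libraries with Y-linked reads and 2 were higher at an adjusted p under 0.05. Over all loci, 6.85% were lower. In either direction the share was 23.9% of the 46 genes against 17.9% of all loci. The lower ones include the potassium channel Kcnma1 (log2 difference -0.95, adjusted p = 0.0017 by edgeR), the matrix protein Npnt (-0.71, adjusted p = 0.0165), the transcription factor Tfap2b (-0.41, adjusted p = 0.00864), the receptor Oxgr1 (-0.40, adjusted p = 0.00804) and the proton pump subunit Atp6v0d2 (-0.30, adjusted p = 0.0103). The 2 higher ones were Irx1 (0.69, adjusted p = 0.000781) and Cul3 (0.28, adjusted p = 0.00694), the ubiquitin ligase scaffold that works with Klhl3.

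For 2 of the 6 genes a promoter with sequence motifs is shown, from RefSeq on GRCm38.p6 (windows of 300 bases around the start). Atp6v1b1 holds 1 forkhead motif GTAAACA, written on the reverse strand as TGTTTAC and in capitals, 98 bases before the start, and Foxi1 belongs to that family of factors. The window lies at chr6:83742767-83743066, plus strand.
Atp6v1b1: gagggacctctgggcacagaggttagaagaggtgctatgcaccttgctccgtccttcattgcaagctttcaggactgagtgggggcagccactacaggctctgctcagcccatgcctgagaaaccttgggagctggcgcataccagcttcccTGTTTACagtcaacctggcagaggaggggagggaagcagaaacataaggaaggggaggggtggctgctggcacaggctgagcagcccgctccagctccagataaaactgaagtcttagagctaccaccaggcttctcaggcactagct
The motif was searched on both strands and occurred in 3.65% of 32851 promoters and in 3 of 36 promoters of these genes (8.33%). Sgk1 has several starts, and the window with the most steroid receptor half-sites (AGAACA, or TGTTCT on the other strand) is shown. It lies at chr10:21993640-21993939, plus strand, and holds 3 half-sites and 1 E-box (CACGTG), which overlaps the first half-site. The other Sgk1 windows hold 1 or 0 half-sites.
Sgk1: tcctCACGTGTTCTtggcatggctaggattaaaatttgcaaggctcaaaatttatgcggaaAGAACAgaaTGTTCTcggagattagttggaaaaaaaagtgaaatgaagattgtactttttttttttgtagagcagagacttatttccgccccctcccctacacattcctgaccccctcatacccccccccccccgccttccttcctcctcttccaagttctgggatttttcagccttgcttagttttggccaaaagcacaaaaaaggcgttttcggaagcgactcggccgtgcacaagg
The half-site occurred on either strand in 19.0% of all promoters and in 10 of 36 promoters of these genes (27.8%), and the E-box in 7.15% and in 2 of 36 (5.56%). These shares describe the windows and bear on no factor. A gene with several starts, such as Sgk1, counts more than once in them. Of the other genes lower with Y-linked reads, Kcnj1 holds 2 half-sites, and the windows of Scnn1b and Trpm6 hold none of these motifs.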

How the data were processed

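Whole-kidney mRNA was sequenced in 11 libraries. Per the labels' protocols, the TruSeq RNA kit, version 2, was used, which does not mark strand. The submitters' processing notes name STAR, SAMtools, HTSeq 0.5.4p5, limma and mm10. The sources used here do not give the annotation used for counting. The authors deposited estimated counts per gene, not normalized, in steps of 0.5 (47.4% of values above 0 were not whole), and a matrix of log2 values, not used here. Counts were rounded. Names with identical counts in all libraries (total at least 50, 1513 loci) were joined. Loci were kept by filterByExpr (14380), scaled by TMM and tested two-sided with edgeR 4.0.16 in R 4.3.3 (glmQLFit, robust, all 11 libraries), adjusted by Benjamini-Hochberg at 0.05. The biological coefficient of variation was 0.215. The fit was also run on simulated counts with large known changes, which does not show that small differences would be found. Libraries with Ddx3y above 5 CPM were called as having Y-linked reads. Alternatives were limma-voom 3.58.1, DESeq2 1.42.0, DESeq2 size factors (RLE), no filter, rows as deposited, the Ddx3y covariate, a replicate block, the 2 groups alone and leaving out each library. No 2 libraries of the same group agreed within sampling noise. The closest pair was KO antimiR-21 1 and 2, with a chi-square per degree of freedom of 6.17. The other pairs had 17.3 to 101. The members and lists were chosen with earlier results of these data known. A log2 difference is printed for genes with an unadjusted p under 0.05 and for the smallest p of each set, for Y-linked status for those with an adjusted p under 0.05, and for others where the text says so. Of each list of other segment genes, the 2 with the smallest p may be named. The values of 1 member's joint locus and of 1 other segment gene are not reported here, though both stay in the counts. Coordinates are from GENCODE vM21 on GRCm38. Annotated promoters were found for 26 of the 33 genes.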

Additional observations from a re-analysis of the deposited data

Results flagged for a closer look

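In 64 groups of 4 libraries (32 genes in KO PBS and in KO antimiR-21), 3 held a library far from the other 3, and chance alone flags about 1 in 20 groups. Hsd11b2 was 123.5 CPM in KO PBS 3, below the other 3 libraries of its group at 150.3 to 152.1 CPM. Aqp3 was 128.2 CPM in KO PBS 4, above the others at 93.2 to 96.7 CPM. Avpr2, counted with Arhgap4, was 44.5 CPM in KO antimiR-21 3, above the others at 30.9 to 31.8 CPM.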

How the results depend on the processing

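No member passed an adjusted p under 0.05 in any of the 3 group comparisons under any alternative that was run. Loci called in KO PBS against HET PBS (0 in edgeR) were 84 with DESeq2, 3 with the Ddx3y covariate, 2 with the replicate block and 0 to 2 with each library left out. In KO antimiR-21 against KO PBS (0), they were 126 with DESeq2, 26 with the block and 0 to 16 with a library left out. In KO antimiR-21 against HET PBS (1), they were 74 with DESeq2, 2 with the covariate, 0 with limma-voom, 4 with the block and 0 to 4 with a library left out. Members at an unadjusted p under 0.05 in KO PBS against HET PBS (3) were 5 with the covariate, 1 with only the 2 groups and 1 to 4 with a library left out. In KO antimiR-21 against KO PBS (2), they were 1 with RLE size factors, no filter, the covariate, the block and only the 2 groups, and 1 to 6 with a library left out. In KO antimiR-21 against HET PBS (1), they were 2 with no filter, DESeq2, the covariate and the block, and 0 to 4 with a library left out. By Y-linked status, loci (2576) were 553 with the block and 1218 to 3736 with a library left out, and members (6) were 12 with DESeq2, 1 (Kcnj1) with the block and 1 to 10 with a library left out. Replicate number and Y-linked reads overlap in these libraries, as given above, so the counts with the block cannot show how stable these calls are. Of 387 alternatives of named differences, 354 kept direction and side, 32 (all by Y-linked status) lost the call, and 1 reversed: Avpr2 in KO antimiR-21 against HET PBS was 0.031 without HET PBS replicate 1 and as low as -0.276 in the other fits that leave out a library. The causes were not tested. The labels give same-numbered libraries only a number in common. Of 10 such pairs, 6 had correlated deviations over 0.1, with r from -0.443 to 0.621. Pairs with different numbers, also from different groups, ranged from r = -0.706 to 0.623. Of 96 group levels, 0 moved by over 1 SD under RLE. Reads of joint loci cannot be assigned, and with 3 or 4 libraries a group small differences are not detectable.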
